A study of Mus musculus with 14 samples.

Results

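The regions described here are the promoter peaks of the transcription factor RUNX1 in hematopoietic progenitors (HP). They were taken from 1 list of chromatin immunoprecipitation sequencing (ChIP-seq) peaks, each 400 bp wide. The rule kept each peak centred 2 kb or less from a transcription start site (TSS), using the curated coding transcripts of RefSeq for the mouse genome (mm10, GRCm38). It left 595 of the 977 RUNX1 peaks, or 60.9% (95% exact interval 57.8 to 64.0%), and 382 distal peaks. The kept peaks lay on 20 chromosomes and none overlapped another.

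The study followed transcription factor binding while mouse embryonic stem cells, of a 129 strain line with a Brachyury-driven GFP reporter, formed blood in culture. HP cells were sorted as CD41+ cells. The other 13 lists came from HP (GATA1, GATA2, GFI1B, PU.1 and C/EBPβ), from Bry.GFP+ FLK1- mesoderm (MES; C/EBPβ and ELK4), from Bry.GFP+ FLK1+ hemangioblasts (HB; C/EBPβ and GATA2), from Bry.GFP+ Tie2+ Ckit+ CD41- hemogenic endothelium (HE; C/EBPβ) and from CD11b+ macrophages grown from the CD41+ cells (MAC; C/EBPβ, RUNX1 and PU.1). Each list stands for 1 factor at 1 stage, so there were no replicates, all intervals cover counting error only, and each test compares sets of peaks and not conditions. The list lengths ran from 72 peaks (MAC RUNX1) to 82866 (MAC PU.1), and the read depth behind them was not used here. For MAC RUNX1, HB GATA2, HB C/EBPβ and MES C/EBPβ the study reports no observed enrichment by quantitative PCR. These samples were still sequenced. All cells derive from 1 reporter line, and CD41 marks a mixture of early blood cells, so the lists are averages over the sorted population.

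RUNX1 is a DNA-binding factor with a runt domain that works with the partner CBFβ and is required for the endothelial to hematopoietic transition, by which blood cells first emerge from endothelium. Its textbook binding sequence is TGTGGTT, and it is best known for acting at distant enhancers together with GATA, ETS and TAL1/LMO2 complexes. Promoters, in contrast, are often rich in CpG dinucleotides and carry sequences for general factors such as SP/KLF and ETS proteins. A divergent (bidirectional) promoter is one that starts a pair of genes on opposite strands from a common stretch of DNA.

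The sequences on which the results below turn are shown first. Capitals mark each TGTGGT or TGCGGT (read ACCACA or ACCGCA on the opposite strand), which are RUNX cores with T or C at the third base, and each CGGAAG or CTTCCG, the core bound by ETS factors. All stretches lie outside annotated exons and are given 5′ to 3′ from the GRCm38 sequence of RefSeq. The first set holds the promoter peaks with the most copies of the full consensus TGTGGTT. They were chr19:60874596-60874694 (minus strand) at Prdx3, a mitochondrial peroxidase; chr5:121397733-121397870 (plus strand) at Naa25, a subunit of an N-terminal acetyltransferase; chr16:16896129-16896216 (plus strand) at Ppm1f, a protein phosphatase; and chr3:27153265-27153426 (minus strand) at Ect2, an exchange factor needed for cytokinesis.

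Prdx3: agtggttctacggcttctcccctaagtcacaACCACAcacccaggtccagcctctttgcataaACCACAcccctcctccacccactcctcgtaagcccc
Naa25: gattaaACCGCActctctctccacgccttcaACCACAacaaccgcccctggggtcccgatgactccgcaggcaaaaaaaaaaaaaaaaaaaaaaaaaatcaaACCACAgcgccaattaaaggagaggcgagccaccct
Ppm1f: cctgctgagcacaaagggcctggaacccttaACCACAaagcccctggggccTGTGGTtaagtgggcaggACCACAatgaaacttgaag
Ect2: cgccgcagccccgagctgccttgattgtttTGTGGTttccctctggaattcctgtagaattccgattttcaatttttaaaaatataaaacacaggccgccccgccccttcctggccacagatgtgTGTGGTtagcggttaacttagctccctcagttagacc

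The second set is from promoters of blood genes and of an immediate-early gene, and shows how RUNX cores differ among them. Those of Spi1, F2r and Fos were added after their values were seen. The stretches were chr2:91082975-91083116 (plus strand) in an intron of Spi1, chr15:103258442-103258561 (minus strand) just upstream of Nfe2, chr13:95618561-95618674 (minus strand) upstream of F2r, and chr12:85472497-85472562 (plus strand) in the farther upstream of the peaks at Fos. In the stretches shown, Spi1 held 3 TGTGGT and no TGCGGT, Nfe2 and Fos held 1 TGCGGT, and F2r held 1 of each. The same Fos peak held 1 full TGTGGTT outside the stretch.

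Spi1: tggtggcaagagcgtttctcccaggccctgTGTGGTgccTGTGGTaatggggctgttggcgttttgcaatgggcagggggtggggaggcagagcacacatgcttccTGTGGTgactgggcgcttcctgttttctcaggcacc
Nfe2: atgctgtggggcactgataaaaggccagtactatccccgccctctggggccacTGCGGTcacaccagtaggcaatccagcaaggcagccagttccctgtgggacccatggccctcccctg
F2r: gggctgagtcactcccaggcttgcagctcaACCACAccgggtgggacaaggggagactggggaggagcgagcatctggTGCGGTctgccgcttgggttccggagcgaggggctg
Fos: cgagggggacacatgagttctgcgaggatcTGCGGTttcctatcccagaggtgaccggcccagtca

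The third set shows divergent promoters, a promoter with repeated TGCGGT and one with repeated ETS cores. Of the DNA between head-to-head start sites, the part outside exons at Cnppd1 and Retreg2 was chr1:75142745-75142785 (plus strand), and the middle 300 bases at BC005624 and Usp20, a deubiquitinase, were chr2:30981961-30982260 (plus strand). The peak at Psme3ip1 (chr8:94601183-94601402, minus strand) was chosen after its values were seen, because only 4 peaks held 3 copies of TGCGGT. The stretch at Prkag1 (chr15:98831509-98831623, minus strand), which encodes a subunit of the AMP-activated kinase, held 3 ETS cores and neither RUNX core.

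Cnppd1/Retreg2: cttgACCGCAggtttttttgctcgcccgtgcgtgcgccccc
BC005624/Usp20: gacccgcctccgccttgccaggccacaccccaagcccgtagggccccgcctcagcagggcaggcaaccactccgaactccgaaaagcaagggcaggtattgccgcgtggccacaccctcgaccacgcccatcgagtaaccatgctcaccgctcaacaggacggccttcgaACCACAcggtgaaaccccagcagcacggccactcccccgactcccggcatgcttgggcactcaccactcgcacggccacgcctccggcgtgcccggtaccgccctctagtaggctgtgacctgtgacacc
Psme3ip1: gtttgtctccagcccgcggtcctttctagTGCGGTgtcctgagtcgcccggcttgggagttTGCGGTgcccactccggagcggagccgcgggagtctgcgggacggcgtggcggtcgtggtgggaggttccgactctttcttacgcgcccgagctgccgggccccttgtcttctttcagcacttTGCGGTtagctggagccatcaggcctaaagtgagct
Prkag1: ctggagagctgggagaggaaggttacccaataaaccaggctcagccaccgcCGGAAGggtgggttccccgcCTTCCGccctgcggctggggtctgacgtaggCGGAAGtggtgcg

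The RUNX1 promoter peaks sat close to the start sites. The median distance from peak centre to nearest TSS was 109 bp (interquartile range 42.5 to 284.5 bp), and 277 of the 595 centres lay within 100 bp. In 397 peaks the start site was inside the peak. Centres were upstream of the nearest TSS in 325 peaks, downstream in 268 and on it in 2. By annotation, 176 centres (29.6%) fell in a 5′ UTR exon, 28 (4.71%) in a coding exon, 99 (16.6%) in an intron and 292 (49.1%) outside coding genes. Peaks just inside the 2 kb limit were at Rrp8 (1843 bp) and Tac4 (1888 bp), and the first outside were at Bid (2010 bp), Ywhaz (2031 bp) and Nup160 (2035 bp).

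**Figure D1:**
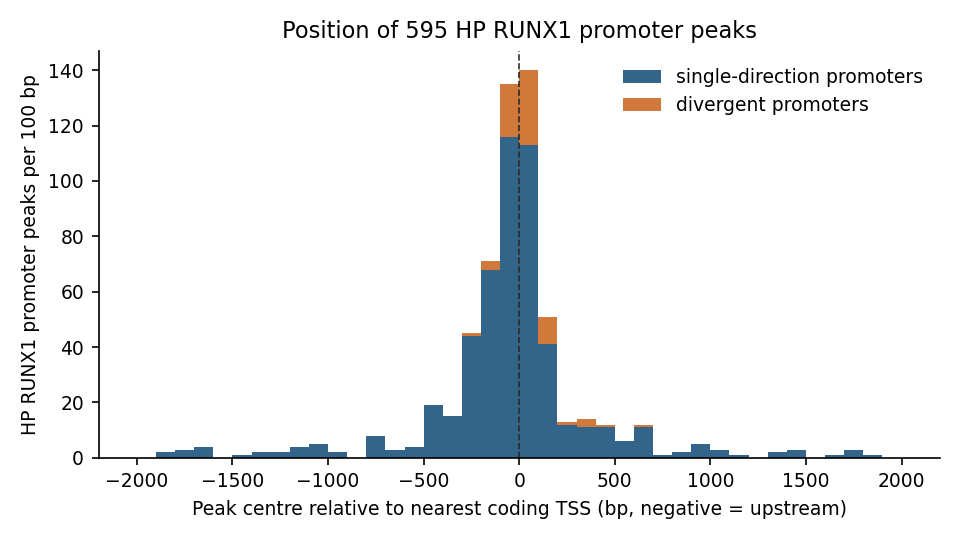
Number of HP RUNX1 promoter peaks per 100 bp (vertical axis) against the distance of the peak centre from the nearest coding TSS in bp (horizontal axis, negative values upstream), with divergent promoters in orange. The 595 peaks form 1 cluster on the start site, with a median distance of 109 bp, and the 66 divergent promoters lie mostly in its centre.

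This closeness was compared with promoter peaks of other factors under the same 2 kb rule. Of the RUNX1 promoter peaks, 433 (72.8%, interval 69.0 to 76.3%) had a centre within 250 bp of the TSS. The share was 42.8% of 853 HP GFI1B promoter peaks (odds ratio 3.57, adjusted exact p = 4.66e-30, two-sided Fisher's exact test with Benjamini-Hochberg adjustment over 4 lists), 39.7% of 1997 HP PU.1 peaks (odds ratio 4.07, adjusted exact p = 5.05e-46) and 41.3% of 782 HP C/EBPβ peaks (odds ratio 3.80, adjusted exact p = 1.49e-31). RUNX1 was thus nearer to the TSS than the other HP factors tested. For MES ELK4, an ETS factor that binds with the serum response factor, 78.5% of 340 promoter peaks lay within 250 bp, and the odds ratio of 0.731 did not pass the threshold of 0.05 (adjusted exact p = 0.0598). The ELK4 difference did pass with TSS windows of 500 bp, 1 kb and 5 kb and with predicted transcripts (adjusted exact p = 0.0462, 0.0221, 0.0103 and 0.0223).

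The promoter peaks belonged to 672 coding genes, 3.2% of the 21000 genes with a curated transcript. A single gene was within 2 kb of 508 peaks, a pair of genes of 86 peaks and 3 genes of 1 peak. Most genes (662) had 1 peak, and 10 had more. Gse1 had 3 peaks. Those at chr8:120486937-120487336 and chr8:120487922-120488321 lay at -1730 and -745 bp from the same start site. The peak at chr8:120537047-120537446 lay at -163 bp from another start site of the gene. Cks2, a binding partner of cyclin-dependent kinases, had peaks at -187 and 427 bp. Dmwd had peaks at -42 and 1782 bp and Fos, a component of AP-1, at -1392 and -36 bp.

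Blood regulators were described first, through lists that were written with earlier results of these data known. Of 16 genes in the network drawn by the study, 2 had a RUNX1 promoter peak, Runx1 and Spi1 (12.5%, interval 1.55 to 38.3%, which includes 3.2%). Of 38 blood transcription factors, which include both, 5 did (13.2%, interval 4.41 to 28.1%, against 3.2% of all coding genes). At Runx1 itself the peak (chr16:92696510-92696909) was centred 620 bp downstream of a TSS in a 5′ UTR exon, held 1 TGTGGTT and 1 TGCGGT, and overlapped the RUNX1 and C/EBPβ lists of macrophages. At Spi1, which encodes the myeloid ETS factor PU.1, the peak (chr2:91082860-91083259) lay 654 bp into the gene, with the 3 TGTGGT cores printed above, and overlapped PU.1 and C/EBPβ in both HP and MAC. Spi1 is therefore a promoter at which RUNX1 and the PU.1 protein itself were both listed in progenitors.

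The other blood factors had peaks of mixed kinds. Nfe2, an erythroid and megakaryocytic leucine zipper factor, was bound at -98 bp (chr15:103258302-103258701) and overlapped 6 lists, GATA1, GATA2, PU.1 and C/EBPβ of HP with PU.1 and C/EBPβ of MAC. The Lyl1 peak (chr8:84701317-84701716), at a relative of Tal1, was centred 59 bp downstream of the TSS and overlapped HP GATA1, GATA2 and PU.1 and MAC PU.1, with neither RUNX core. Cbfa2t3, which encodes the corepressor ETO2, was bound at -1772 bp (chr8:122700682-122701081) together with HP GATA2, GFI1B and PU.1 and MAC PU.1, and also held neither core. None of the 5 blood factor peaks was CpG-rich, whereas most promoter peaks were, as described below.

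Among 47 blood surface and signalling genes 1, F2r, a thrombin receptor gene, had a promoter peak (2.13%, interval 0.0539 to 11.3%). That interval includes the 3.2% of all coding genes. Itga2b, the sorting marker CD41, had none. None of 34 endothelial genes and none of 39 Hox genes had one, counts whose exact upper limits of 10.3% and 9.03% also include 3.2%, so a difference from all coding genes was not detectable. The 1103 olfactory receptor genes, which are silent in blood, had none either, with an upper limit of 0.334%.

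Immediate-early genes, which respond within minutes to growth factor signals, were among the bound promoters. The count was 4 of 26 (15.4%, interval 4.36 to 34.9%), against 3.2% of all coding genes. The proximal Fos peak (-36 bp, chr12:85473655-85474054) overlapped HP PU.1, MAC PU.1 and MES ELK4, and the distal one (-1392 bp, chr12:85472299-85472698) overlapped HP GFI1B only. Ier2 (-1202 bp) overlapped the same 3 lists as the proximal Fos peak. Jund (975 bp), another AP-1 component, overlapped HP GFI1B and both large MAC lists. Dusp1 (82 bp), a phosphatase that switches off MAP kinases, overlapped none and held 2 TGCGGT.

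General machinery was described through lists of the same kind. All lists together held 94 of the 672 genes, so most bound genes fell in none of them. Splicing and mRNA processing genes were bound in 10 of 74 cases (13.5%, interval 6.68 to 23.5%), among them Hnrnpa2b1 (14 bp) and the RNA helicase Ddx5 (-82 bp), with Sf3a2 (-143 bp) and the splicing regulator Srsf3 (-150 bp). The transcription machinery had 10 of 84 (11.9%, interval 5.86 to 20.8%), including the general factors Gtf2e2 (7 bp) and Gtf2a2 (31 bp), the Mediator subunit Med26 (26 bp) and the TATA-binding protein Tbp (64 bp). Translation factors had 6 of 47 (12.8%, interval 4.83 to 25.7%), such as the initiation factors Eif4a2 (-27 bp), Eif2b4 (55 bp) and Eif3g (-108 bp) and the release factor Gspt1 (-63 bp). All 3 of these intervals lay above the share of all coding genes. With each peak given to its nearest coding TSS only, the counts were 7 for splicing, 8 for the transcription machinery and 6 for translation factors.

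Housekeeping lists of a similar share were the ubiquitin and autophagy genes (7 of 66, 10.6%), DNA repair (6 of 59, 10.2%) and chromatin regulators (8 of 79, 10.1%). The first held Atg4c (0 bp), Atg7 (-6 bp), the ubiquitin-conjugating enzyme Ube2b (44 bp) and Rbx1 (-96 bp), a ring subunit of cullin ligases. In DNA repair the kinase Atr (31 bp), the nuclease Mre11a (88 bp), Xrcc6 (109 bp), which encodes Ku70, and the damage sensor Xpc (113 bp) had the closest peaks. The chromatin genes nearest their peaks were the remodeller Chd8 (-42 bp), the histone demethylases Kdm2b (-131 bp) and Kdm5a (212 bp) and Smarcd2 (149 bp), a subunit of SWI/SNF complexes.

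Other lists were closer to the 3.2% of all coding genes. Cytosolic ribosomal proteins had 6 of 86 (6.98%; Rpl30, Rpl18, Rpl27a and Rpl22 were nearest), proteasome subunits 3 of 49 (6.12%; Psmd7, Psma6 and Psmb1) and mitochondrial ribosomal proteins 4 of 78 (5.13%; Mrpl17, Mrpl45, Mrpl40 and Mrpl4). The Psmb1 peak lay at -1676 bp and was the same peak as that at Tbp. With each peak given to its nearest coding TSS only, cytosolic ribosomal proteins had 5 genes and proteasome subunits 2. Zinc finger genes named Zfp had 17 of 395 (4.30%), led by Zfp637, Zfp184, Zfp688 and Zfp607b. Ribosome biogenesis genes had 2 of 59 (3.39%; Exosc4 and Nop2), DNA replication and chromosome cycle genes 2 of 74 (2.70%; Orc5 and Aurkb), aminoacyl-tRNA synthetases 1 of 37 (2.70%; Gars) and the respiratory chain 2 of 92 (2.17%; Ndufs7 and Cox20). The exact intervals of all these lists included 3.2%, so a difference from all coding genes was not detectable at these counts. These lists were described by counts, with no test.

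**Figure D2:**
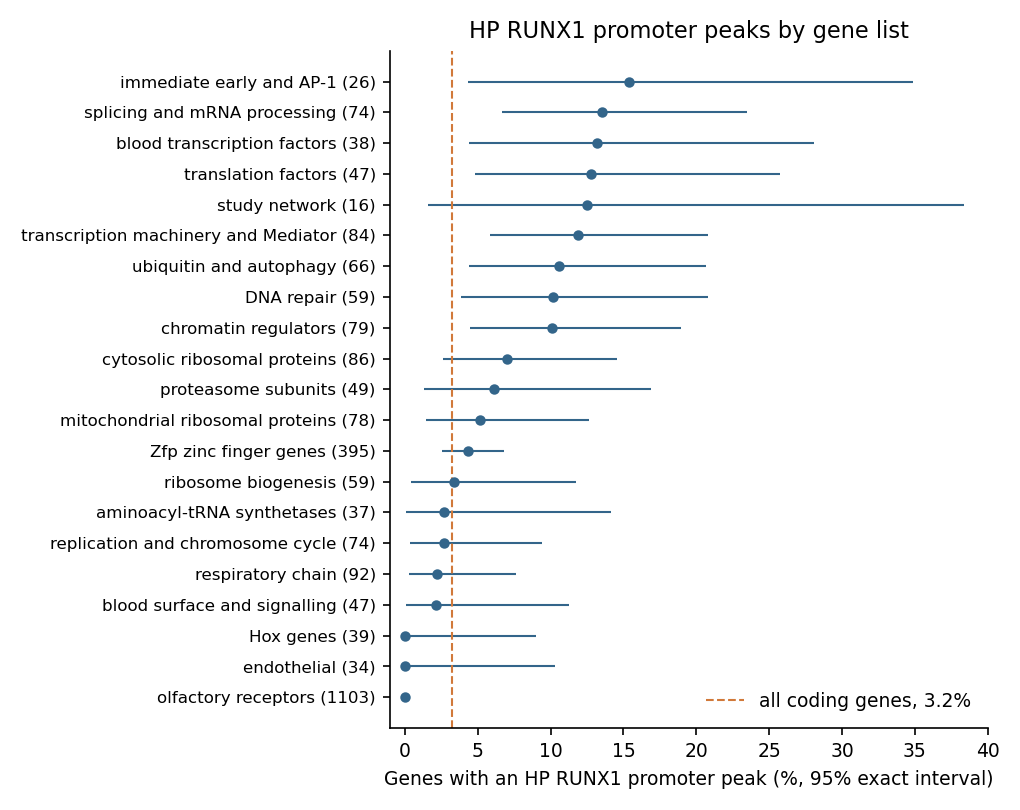
Share of the genes of each list with an HP RUNX1 promoter peak in percent (points, with 95% exact intervals as bars; number of genes in brackets) beside the share of all coding genes (dashed line, 3.2%). Blood transcription factors, immediate-early genes and the splicing, transcription machinery, translation, repair, chromatin and ubiquitin lists lie above the line with their whole interval, and endothelial, Hox and olfactory receptor genes have no peak.

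The sequence under the promoter peaks differed from that under the distal RUNX1 peaks. A peak was called CpG-rich when at least 50% of its bases were G or C and its ratio of observed to expected CpG was at least 0.6. By this measure 511 promoter peaks (85.9%, interval 82.8 to 88.6%) and 53 distal peaks (13.9%, interval 10.6 to 17.8%) were CpG-rich, an odds ratio of 37.8 (adjusted exact p = 3.27e-118, Fisher's exact test adjusted over 3 sequence features). Over all 25999 curated coding TSS, 50.9% of windows of the same length were CpG-rich, so the RUNX1 promoter peaks were richer than the average start site. Their median GC content was 64.3% and their median CpG ratio 0.845, against 53.3% and 0.254 in distal peaks.

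The full RUNX consensus TGTGGTT, searched on both strands, was found in few promoter peaks. It was in 82 of 595 (13.8%, interval 11.1 to 16.8%) and in 174 of 382 distal peaks (45.5%, interval 40.5 to 50.7%), an odds ratio of 0.191 (adjusted exact p = 1.22e-27). Of all TSS windows 5.44% held it. Every TGTGGTT is also counted where the shorter TGTGGT is given. Among the promoter peaks 78 held 1 copy and 4 held 2, those at Prdx3, Naa25, Ppm1f and Ect2 shown above. The peaks with 1 copy that lay nearest to a start site were at the autophagy gene Atg7 (-6 bp), the spindle checkpoint regulator Mad2l1bp (11 bp), Pmpca (-12 bp), the collagen-modifying enzyme gene Plod3 (22 bp), Maf1 (-23 bp), a repressor of RNA polymerase III, and Bambi (-24 bp), a decoy receptor of TGFβ signalling. When only CpG-rich peaks were compared, the shares were 10.8% of 511 promoter and 17.0% of 53 distal peaks and did not pass the threshold (odds ratio 0.590, adjusted exact p = 0.284), while among the remaining peaks they were 32.1% and 50.2% (odds ratio 0.471, adjusted exact p = 0.00467).

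A related core was also counted. TGCGGT, which differs from TGTGGT at the third base only, was in 327 promoter peaks (54.96%, interval 50.9 to 59.01%), in 109 distal peaks (28.5%, interval 24.1 to 33.3%), in 11.4% of TSS windows and in 14.4% of GFI1B promoter peaks. Between promoter and distal peaks the odds ratio was 3.06 (adjusted exact p = 4.86e-16), the opposite direction to TGTGGTT. The comparison was added after the data were seen. TGTGGT, in contrast, was in 32.3% of promoter peaks, 70.2% of distal peaks, 18.3% of TSS windows and 20.4% of GFI1B promoter peaks. The T core was thus the more frequent one in distal peaks and the C core in promoter peaks. The C core was compared within each class of CpG content, with no test. Among CpG-rich peaks alone TGCGGT was in 55.6% of 511 promoter and 62.3% of 53 distal peaks (interval 47.9 to 75.2%), and TGTGGT in 27.2% and 22.6%. Among peaks that were not CpG-rich, TGCGGT was in 51.2% of 84 promoter peaks (interval 40.04 to 62.3%) and 23.1% of 329 distal peaks (interval 18.7 to 28.0%), and TGTGGT in 63.1% and 77.8%. The higher share of the C core at promoters was thus seen among peaks that were not CpG-rich and not among CpG-rich ones.

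Cores with A or G at the same position were counted for comparison. TGAGGT was in 16.6% of promoter peaks and 18.6% of TSS windows, and TGGGGT in 24.0% and 24.4%. Neither share was above that at start sites in general. Within CpG-rich windows alone, TGCGGT was in 55.6% of the 511 promoter peaks, against 16.04% of 13237 TSS windows and 18.4% of 468 GFI1B promoter peaks. With a further T, TGCGGTT was in 137 promoter peaks (23.0%) and in 2.22% of TSS windows.

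**Figure D3:**
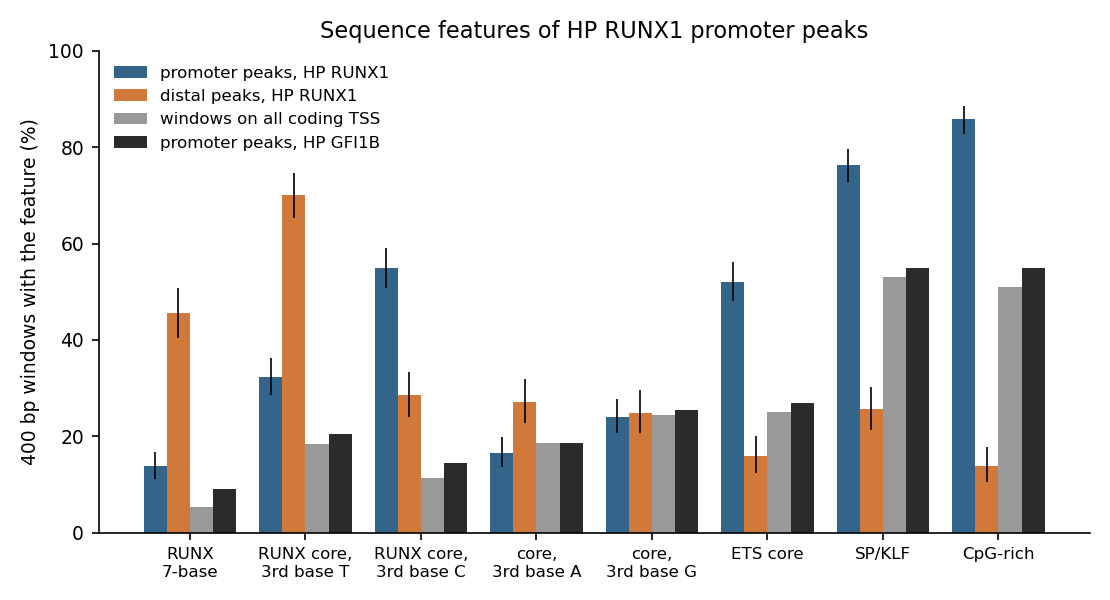
Share of 400 bp windows (percent) that hold each sequence feature in HP RUNX1 promoter peaks, HP RUNX1 distal peaks, windows on all coding TSS and HP GFI1B promoter peaks; error bars are 95% exact intervals for both RUNX1 sets. The core with C at the third base is in 54.96% of promoter and 28.5% of distal peaks, while that with T is in 32.3% and 70.2%, and those with A or G differ little between promoter peaks and start sites.

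The T and C cores lay at the middle of the promoter peaks. Of 383 copies of TGCGGT in these peaks, 273 (71.3%) were within 50 bp of the peak centre, and of 252 copies of TGTGGT 141 (56.0%) were. For TGAGGT the share was 25.6% of 117 copies and for TGGGGT 19.0% of 163 copies, so these cores were not gathered at the centre. The same arrangement held in distal peaks, with 63.1% of 502 TGTGGT and 65.4% of 127 TGCGGT copies in the middle. A T or C core within 50 bp of the centre was present in 355 promoter peaks (59.7%, interval 55.6 to 63.6%), against 8.04% of TSS windows and 10.1% of GFI1B promoter peaks. The corresponding shares for an A or G core were 9.75%, 10.3% and 11.6%.

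**Figure D4:**
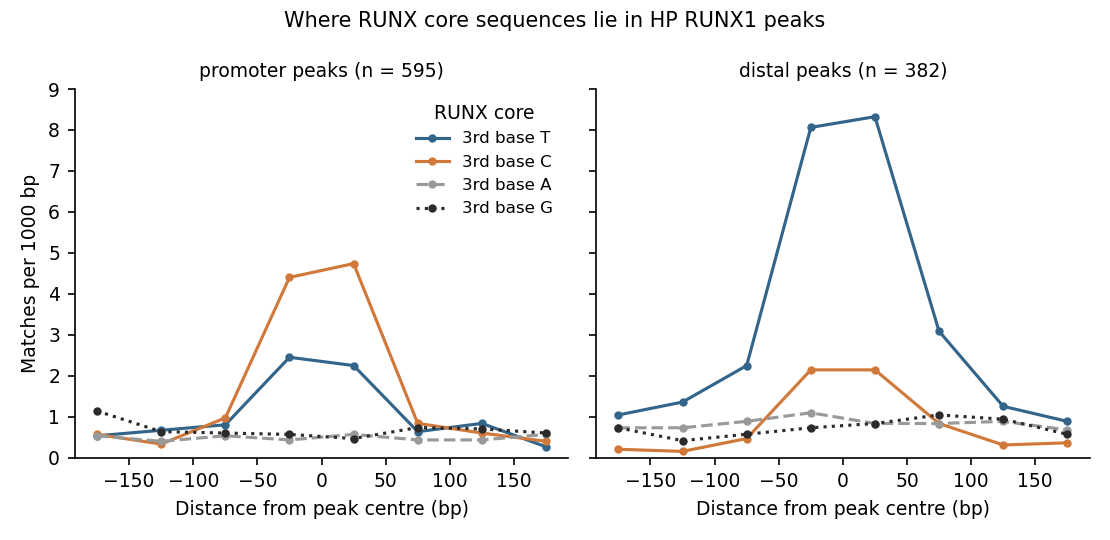
Copies of each RUNX core per 1000 bp (vertical axis) in steps of 50 bp from the peak centre (horizontal axis, bp) in promoter peaks (left) and distal peaks (right). Cores with T or C at the third base rise at the centre in both panels, and cores with A or G do not. The C core is the more frequent one in promoter peaks (4.74 per 1000 bp at its highest) and the T core in distal peaks (8.32). In promoter peaks the G core is at 1.14 and 0.605 in the outermost steps and at 0.571 and 0.471 in the central ones.

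Counted over the whole peak, 441 promoter peaks (74.1%) held a T or C core, 249 of them (41.8% of all) only the C form, and 154 (25.9%) held neither. The distal share for either core was 86.9%, which was higher than in promoter peaks (odds ratio 0.431, adjusted exact p = 1.14e-06). Of TSS windows 28.0% held either core. By its letters neither core can share a base with the ETS core CGGAAG or with the SP/KLF sequence GGGCGG. Of the TGTGGT copies, 1 shared a base with a TGCGGT.

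ETS sequences that hold CGGAAG were the second feature of the promoter peaks. CCGGAAGT was in 74 promoter peaks (12.4%, interval 9.89 to 15.4%) and 6 distal peaks (1.57%, interval 0.579 to 3.39%), an odds ratio of 8.90 (adjusted exact p = 4.34e-11), and in 5.45% of TSS windows. The shorter CGGAAG was in 52.1% of promoter peaks, 15.97% of distal peaks and 25.1% of TSS windows. In CpG-rich windows alone it was in 55.6% of promoter peaks and 38.8% of TSS windows, while CCGGAAGT no longer differed beyond the threshold between promoter and distal peaks (13.5% and 7.55%, odds ratio 1.91, adjusted exact p = 0.284). Among the remaining peaks CCGGAAGT was in 5.95% and 0.608% (odds ratio 10.3, adjusted exact p = 0.00467). ETS cores were less centred than RUNX cores, with 37.4% of 449 CGGAAG copies within 50 bp of the peak centre. The sequence of the ETS factor PU.1, GAGGAAGT, went the other way between promoter and distal peaks. GAGGAAGT was in 4.03% of promoter peaks, 8.38% of distal peaks and 3.56% of TSS windows, with no test.

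Other sequences were counted in the same way. GGGCGG was in 76.3% of promoter peaks and 53.1% of TSS windows, but in CpG-rich windows the shares were 82.0% and 82.3%. CCAAT, bound by NFY, was in 40.8% and 41.6%. The GATA sequence AGATAA was in 6.89% of promoter peaks and 30.4% of distal peaks, and the AP-1 sequence TGANTCA in 4.87% and 14.9%. The C/EBP half-site pair TTGCNNAA was in 9.75% and 13.6%. These shares were described and not tested.

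Promoter peaks differed among themselves in their RUNX sequence. The consensus TGTGGTT was in 10.4% of the 433 peaks within 250 bp of the TSS and in 22.8% of the 162 peaks farther away (odds ratio 0.392, adjusted exact p = 0.000497, Fisher's exact test adjusted over 3 splits). Among peaks within 1 kb of the TSS the shares were 10.4% and 17.6% and did not pass the threshold (adjusted exact p = 0.123). TGCGGT was in 54.5% of the near and 56.2% of the farther peaks (adjusted exact p = 0.781). Peaks that overlapped another HP list held TGTGGTT in 15.4% of 169 cases and the others in 13.1% of 426 (adjusted exact p = 0.570), and divergent promoters in 10.6% of 66 against 14.2% of 529 (adjusted exact p = 0.570). The 84 promoter peaks that were not CpG-rich lay farther from the TSS (median 473.5 bp) and held TGTGGTT in 32.1% of cases.

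The other 13 lists were then placed on the RUNX1 promoter peaks, counting an overlap of at least 1 bp. No other list overlapped 110 peaks (18.5%), 1 list overlapped 216, and 2 lists overlapped 155. A further 75 peaks had 3 lists, 23 had 4, 9 had 5 and 7 had 6. The single most frequent combination was MAC PU.1 alone (150 peaks, 25.2%), followed by MAC PU.1 with MAC C/EBPβ (101 peaks, 17.0%). Other HP factors were present at 169 peaks and absent from 426.

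Progenitor factors overlapped promoter RUNX1 peaks less often than distal ones. GATA1 overlapped 14 promoter peaks (2.35%) and 14.1% of distal peaks (odds ratio 0.146, adjusted exact p = 1.93e-11, Fisher's exact test adjusted over 13 lists), and GATA2 22 (3.70%) and 17.8% (odds ratio 0.177, adjusted exact p = 2.64e-12). GFI1B, a zinc finger repressor, overlapped 66 (11.1%) and 28.5% (odds ratio 0.312, adjusted exact p = 5.23e-11), and HP PU.1 80 (13.4%) and 30.1% (odds ratio 0.361, adjusted exact p = 1.57e-09). HP C/EBPβ overlapped 36 (6.05%) and 9.69%, which did not pass the threshold (adjusted exact p = 0.0590) but did with an overlap of at least 200 bp or a 5 kb window (adjusted exact p = 0.0248 and 0.0413). Among the HP lists the GATA factors had the lowest odds ratios. These lists were themselves mostly distal, unlike that of RUNX1, of which 60.9% were promoter peaks. The share of promoter peaks was 23.6% for GATA1, 27.2% for GATA2, 42.3% for GFI1B, 18.2% for PU.1 and 28.8% for C/EBPβ. How far these shares account for the odds ratios was not tested. Compared with all promoters, every HP list was more frequent at RUNX1 promoters, as given below.

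Among the lists of other stages, 2 were higher and 2 lower at promoter peaks. Of their own peaks, 18.04% (MAC PU.1) and 64.9% (MES ELK4) of the higher lists were promoter peaks. For the lower lists the shares were 22.7% (HE C/EBPβ) and 26.4% (MAC RUNX1). MAC PU.1 overlapped 398 promoter peaks (66.9%, interval 62.9 to 70.7%) and 56.5% of distal peaks (odds ratio 1.55, adjusted exact p = 0.00306), and MES ELK4 27 (4.54%) and 1.05% (odds ratio 4.49, adjusted exact p = 0.00413). With an overlap of at least 200 bp the MAC PU.1 difference did not pass the threshold (49.1% and 45.5%, adjusted exact p = 0.382). MAC C/EBPβ overlapped 248 promoter peaks (41.7%) and 36.4% of distal peaks (adjusted exact p = 0.127), and with a 500 bp TSS window the difference passed (43.7% and 35.1%, adjusted exact p = 0.00975). HE C/EBPβ overlapped 2 promoter peaks (0.336%) and 3.14% of distal peaks (odds ratio 0.104, adjusted exact p = 0.00113), a call that was lost with the TSS of all annotated transcripts (odds ratio 0.344, adjusted exact p = 0.101). For MES C/EBPβ (13 peaks, 2.18%), HB C/EBPβ (8 peaks, 1.34%) and HB GATA2 (1 peak, 0.168%) the promoter and distal shares did not differ beyond the threshold (adjusted exact p = 0.236, 0.599 and 0.0527). The HB GATA2 difference, which rests on 1 promoter peak, did pass with a 5 kb window, with all annotated transcripts and with predicted transcripts (adjusted exact p = 0.0286, 0.0307 and 0.0382).

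**Figure D5:**
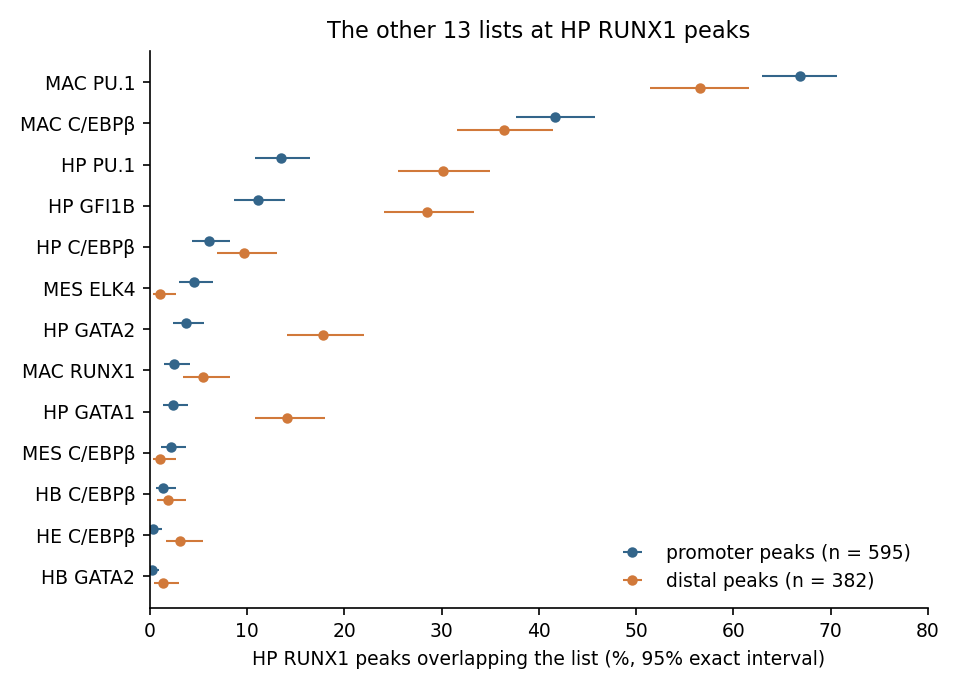
Share of HP RUNX1 promoter peaks (blue) and distal peaks (orange) that overlap each of the other 13 lists, in percent with 95% exact intervals. GATA1, GATA2, GFI1B and PU.1 of HP, HE C/EBPβ (0.336% against 3.14%) and MAC RUNX1 (2.52% against 5.50%) are lower at promoter peaks, and MAC PU.1 (66.9% against 56.5%) and MES ELK4 (4.54% against 1.05%) are higher.

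Since long lists reach many promoters, each list was also counted over all promoters. Coding TSS at most 1 kb apart were joined into 22388 promoter loci, of which 609 (2.72%) had a RUNX1 peak centre within 2 kb. MAC PU.1 was at 88.8% of these loci and at 47.7% of all loci, and MAC C/EBPβ at 68.3% and 34.3%. HP PU.1 was at 20.9% (8.71% of all), HP GFI1B at 14.3% (3.82%), HP C/EBPβ at 10.2% (3.61%), HP GATA2 at 4.27% (0.652%) and HP GATA1 at 2.46% (0.277%). The shares were 4.93% (1.55%) for MES ELK4, 3.61% (1.5%) for MES C/EBPβ, 1.97% (0.965%) for HB C/EBPβ, 0.493% (0.138%) for HE C/EBPβ and 0.164% (0.0179%) for HB GATA2. Every list was thus at a larger share of the RUNX1 promoter loci than of all loci, as a description without a test, although HB GATA2 rests on 1 locus and HE C/EBPβ on 3, with an interval of 0.102 to 1.43% that includes its share of all loci. Seen from the other side, the promoter peaks that overlapped RUNX1 were 23.7% of the 59 of HP GATA1, 15.3% of the 144 of HP GATA2, 7.74% of the 853 of HP GFI1B, 7.94% of the 340 of MES ELK4 and 4.01% of the 1997 of HP PU.1.

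RUNX1 itself was listed in macrophages at few sites, but most of its macrophage promoter peaks were progenitor ones. For the MAC RUNX1 sample no enrichment by quantitative PCR was observed, as given above. The MAC RUNX1 list held 72 peaks, 19 of them at promoters, and 15 of these 19 (78.9%, interval 54.4 to 93.9%) overlapped a promoter peak of HP. They were 2.52% of the HP promoter peaks, against 5.50% of the distal ones (odds ratio 0.445, adjusted exact p = 0.0366), a difference that did not pass the threshold with an overlap of at least 200 bp, a 5 kb window, all annotated transcripts or without peaks in 9 or more lists (adjusted exact p = 0.0542, 0.0595, 0.0958 and 0.0780). By promoter locus, MAC RUNX1 was at 2.63% of RUNX1 loci and 0.0938% of all loci. Apart from Runx1 itself, shared peaks near their TSS were at Slc25a4 (22 bp), a mitochondrial ADP/ATP carrier, Tsc22d2 (25 bp), Ccdc77 (58 bp), Cltc (-73 bp), the clathrin heavy chain, and Polg (113 bp), the mitochondrial DNA polymerase. Acsl3 (131 bp), Erich1 (-197 bp), Dhrs11 (-204 bp) and the glycolytic enzyme gene Pgk1 (-206 bp) came next.

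The promoters with the most lists often had C/EBPβ at several stages. At Ndufs7 (chr10:80249193-80249592), a subunit of respiratory complex I, C/EBPβ was listed at all 5 stages. Pcf11 (chr7:92669722-92670121), a termination factor, Srsf2 (chr11:116853103-116853502), a splicing factor, and Plekhg2 (chr7:28372607-28373006) overlapped C/EBPβ in 4 stages, MES, HB, HP and MAC, as did Alg11 (chr8:22060473-22060872), a mannosyltransferase of the endoplasmic reticulum. Prkag1 (chr15:98831364-98831763) overlapped it in MES, HP and MAC, and Polg (chr7:79465961-79466360) in HB, HE and HP. Most of these also had a further HP factor, PU.1 at Pcf11, Srsf2, Polg and Prkag1 and GATA2 at Plekhg2. Mylk3 (chr8:85380830-85381229), a myosin light chain kinase gene, overlapped C/EBPβ, GATA1, GATA2 and GFI1B of HP, and Nfe2 overlapped C/EBPβ, GATA1, GATA2 and PU.1 of HP. Aldh3a2 (chr11:61267050-61267449), an aldehyde dehydrogenase, overlapped GATA2, PU.1 and C/EBPβ of HP.

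Only 2 promoter peaks had the exact set of GATA1, GATA2 and GFI1B of HP and no other list, and they were named after their values were seen. One was at -1135 bp from Flt3l, which encodes the FLT3 ligand (chr7:45137368-45137767), and had 1 TGTGGTT and a further TGTGGT. The other was at -1376 bp from Rbpms (chr8:33931040-33931439), an RNA-binding protein gene, and had 1 TGCGGT. Neither was CpG-rich. The Gse1 peak at -1730 bp (chr8:120486937-120487336) had the same HP factors together with MAC PU.1, as did a CpG-rich peak at -206 bp from Sde2.

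Divergent promoters were the last feature examined. A pair was called divergent when the start sites of 2 coding genes faced away from each other with at most 1 kb between them and both were within 2 kb of the peak centre. Of the RUNX1 promoter peaks 66 (11.1%, interval 8.68 to 13.9%) were at such pairs. The share was 22.7% with the TSS of all annotated transcripts and 24.2% when the partner could be a transcript of any type. Counted by promoter locus the share was 11.0%, against 4.12% of all loci. Of the divergent peaks 92.4% were CpG-rich, against 50.9% of all TSS windows, and the loci were not split by CpG content. The start sites were a median of 189.5 bp apart, from 21 bp (Poll and Dpcd) to 771 bp (Hnrnpa2b1 and Cbx3), and 23 peaks (34.8%) had their centre between them. The median distance from the peak centre to the midpoint of the pair was 134.5 bp.

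The divergent share was compared with that of other factors. It was 7.66% for HP PU.1 promoter peaks, which was lower (odds ratio 1.50, adjusted exact p = 0.0461, Fisher's exact test adjusted over 4 lists), but it was 8.21% for HP GFI1B and 7.93% for HP C/EBPβ (adjusted exact p = 0.0675 and 0.0656), and 16.2% for MES ELK4 (odds ratio 0.647, adjusted exact p = 0.0656). When only peaks within 250 bp of the TSS were compared, the shares were 14.1% for RUNX1 and 12.0% for HP PU.1 (adjusted exact p = 0.598). The PU.1 difference also did not pass with a 500 bp TSS window or with start sites up to 2 kb apart (adjusted exact p = 0.277 and 0.0695). The C/EBPβ and ELK4 differences passed with a 5 kb window (adjusted exact p = 0.0315 and 0.0392) and with predicted transcripts (0.0312 for both), and that of C/EBPβ with start sites within 500 bp (0.0167). RUNX1 promoter peaks also lay closer to the TSS than those of PU.1, as given above, and the part of distance in the divergent share was not tested beyond this restriction.

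The pairs with the peak nearest to their midpoint were at genes of varied function. At Apaf1, the apoptosome protein, and Ikbip (296 bp apart) the peak was centred exactly on the midpoint (chr10:91082692-91083091), held 1 TGCGGT and overlapped no other list. The peak between BC005624 and Usp20 (338 bp) lay 2 bp from the midpoint with 1 TGTGGT, and that between Entr1 and Pmpca (32 bp), a mitochondrial processing peptidase, 4 bp away. Bcl2l12 and Irf3, an interferon regulatory factor (69 bp), Cnppd1 and Retreg2 (75 bp), Gatc and Triap1 (70 bp), and Slc7a6os and Prmt7, an arginine methyltransferase (121 bp), followed with offsets of 5.5, 9.5, 11 and 11.5 bp. Ndor1 and Tmem203 (25 bp), Eri2 and Rexo5, an exonuclease pair (64 bp), and Gm45935 and Cab39l (83 bp) completed the 10. Well-known pairs were among the rest and were named after their values were seen, such as the mitochondrial chaperonins Hspd1 and Hspe1 (216 bp; MES ELK4 and MAC C/EBPβ overlapped), and the heterochromatin and hnRNP genes Cbx5 with Hnrnpa1 (545 bp) and Cbx3 with Hnrnpa2b1.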

How the data were processed

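ChIP-seq peak lists of 14 samples, 1 per factor and stage, were analysed. By the methods the study describes, the authors aligned reads to mm10 with Bowtie, kept uniquely mapped reads, called peaks with MACS against input, refined them with polyPeak and set the width to 400 bp; the submitters' processing notes also name bedtools. Software versions: not given in the sources used here. Peak thresholds were set by the authors for each list, and a longer list need not mean more binding. Each deposited list holds peak positions (chromosome, start, end) and no score, count or p-value, and read depth per sample was not used here, so no precision is derived from it.

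Annotation and sequence came from RefSeq for GRCm38, which was checked against peak positions. Start sites were those of curated coding transcripts, which give the 595 regions of the rule; the planned set, with predicted transcripts, became an alternative once the member counts were known. Motifs were matched exactly on both strands, in peaks and in 400 bp windows on every start site. Shares were compared by two-sided Fisher's exact tests with Benjamini-Hochberg adjustment and a threshold of 0.05, and intervals are exact Clopper-Pearson 95% intervals. Genes were named by a rule: all bound genes of the blood lists and the 4 nearest of every other list, and the 10 peaks with most lists, most RUNX matches, a MAC RUNX1 overlap or a divergent midpoint closest. Some genes that the rule names are not reported here. The members and lists were chosen with earlier results of these data known. The counting functions were tested on simulated data. Calculations used Python 3.11.15, NumPy 2.4.6, pandas 2.3.3, SciPy 1.17.1, pysam 0.24.0, samtools 1.23.1 and Matplotlib 3.10.9.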

Additional observations from a re-analysis of the deposited data

How the results depend on the processing

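The member count stayed between 515 and 666, and the gene count between 576 and 888, over all start-site sets and windows tried. The odds ratios of the RUNX consensus, the ETS consensus and CpG richness kept their direction and stayed past the threshold under every alternative except those given here; the cause was not tested. In CpG-rich peaks only, the odds ratios for TGTGGTT and CCGGAAGT were 0.590 and 1.91. With TGCGGT in place of TGTGGTT the promoter to distal ratio was 3.06.

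Within the promoter peaks, the ratio near to far from the TSS was 0.518 and 0.543 with windows of 500 bp and 1 kb and 0.935 with TGCGGT, none past the threshold. The ratio for another HP list turned to 0.755 with the 500 bp window, 0.846 with TGNGGT, 0.822 with TGCGGT and 0.989 with either core, and passed at 1.66 with a 5 kb window. The ratio for divergent promoters turned to 1.01 with the 500 bp window, 1.77 with TGNGGT, 1.39 with TGCGGT and 1.34 with either core. Without peaks in 9 or more other lists the ratio of HB C/EBPβ turned to 1.70 from 0.730.

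The number of 4 lists that differed in divergent share was 1. It was 0 with a 500 bp window, with start sites up to 2 kb apart and with peaks within 250 bp only, 2 with start sites within 500 bp, and 3 with a 5 kb window or with predicted transcripts. The divergent share was 22.7% with all annotated transcripts and 24.2% with a partner of any type. The share near the TSS was 84.1%, 77.6% and 66.5% with windows of 500 bp, 1 kb and 5 kb, and 46.6% and 86.6% with limits of 100 and 500 bp. A further 29 changes concerned single lists. A peak centre within 2 kb of the same TSS could be used for promoter peaks only. No paired analysis was possible because every group held 1 list and the result comes from no test over samples. The alternatives with TGCGGT, with either core, by CpG richness, within 250 bp and without other lists' peaks that overlap a RUNX1 promoter peak were chosen after seeing the data, as was the exchange of the planned start sites for the curated ones.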
